A study of Zea mays with 28 samples.

Results

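The interior of the maize chromosomes held 10739 regions at which both maize DDM1 proteins and ZmAGO4 were called in every wild-type library. They were found by merging the peaks of the 6 wild-type lists where they shared at least 1 bp. A merged region was kept when it held a peak of each list and when its midpoint lay in the middle 60% of the chromosome, outside the first and last 20%. Merging gave 122155 regions in all, and 24115 of them, 19.7%, held a peak of all 6 lists. The 10739 interior regions were 44.5% of these 24115. The other 13376 lay in the outer 40% of the chromosome length and serve here as the comparison. Because the members were chosen by the peak calls of the 6 wild-type lists and by position, the number of members and the presence of a peak are not findings, and the wild-type fold values are given as a description.

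The libraries came from developing embryos of the maize inbred line W22, taken 18 days after pollination, and no treatment was applied. Chromatin from wild-type (WT) embryos was precipitated with antibodies against ZmDDM1A, ZmDDM1B or ZmAGO4, all made in the submitters' laboratory, in 2 libraries each. The ZmDDM1A antibody was also used on zmddm1a embryos and the ZmDDM1B antibody on zmddm1b embryos, again in 2 libraries each. The labels name the mutants by gene only and do not give the alleles, and they do not say whether the 2 libraries of a group came from separate plants, so any spread between them may be technical. Of the 28 libraries of the series, 10 have a peak list that was used here. Coordinates are of B73 RefGen_v4, which is the genome of another inbred line, so W22 sequence that B73 lacks cannot hold a region.

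DDM1 is a chromatin remodeller of the SNF2 family. In Arabidopsis it is needed to keep DNA methylation and silencing at transposable elements in compact chromatin. AGO4 is an Argonaute protein that carries small interfering RNAs to nascent transcripts and brings in a DNA methyltransferase, the last part of the pathway called RNA-directed DNA methylation. In maize the genes are dense towards the chromosome ends, and the interior around the centromeres is filled mainly with retrotransposons. RNA-directed methylation in maize is known mostly from short stretches next to genes. The series title joins DDM1 with this pathway on active chromatin, and the interior is where genes are most thinly spread. Genes at the regions were not analysed here, since no annotation of the build was used.

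The members were unevenly spread within the interior. They occurred at 8.50 per Mb, against 15.9 per Mb in the outer 40%, a ratio of 1.87. The lowest density of regions called in all 6 lists was 5.30 per Mb, between 30% and 35% of the chromosome length. It stayed under 6 per Mb up to 50% and climbed to 14.3 per Mb between 75% and 80%. Seen by chromosome, members ran from 7.07 per Mb on chromosome 2 to 9.61 per Mb on chromosome 1. The ratio of outer to interior density was lowest on chromosome 4, at 1.24, with 8.93 members per Mb against 11.1 per Mb outside. It was highest on chromosome 2, at 2.46, with 7.07 against 17.4. Within a chromosome the contrast was wider still. On chromosome 4 the 5% step from 35% to 40% held 51 members and the step from 70% to 75% held 271, which is 4.13 and 21.9 per Mb. On chromosome 7 the fewest, 19, lay between 35% and 40%, and the most, 158, between 70% and 75%. The thinnest step began between 25% and 45% on all 10 chromosomes, and the fullest lay between 65% and 80%.

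The share of merged regions that all 6 lists called fell along with their density, but by less. Over the whole interior 18.3% of the 58569 merged regions were members, against 21.0% of the 63586 outer ones. In the 5% steps the share was lowest between 30% and 35%, at 15.8%, and highest within the interior between 70% and 75%, at 21.2%. The number of merged regions of any kind went from 3522 to 6796 over the same 2 steps, and that of members from 558 to 1444. These counts rest on peak calls, and the amount of sequence to which reads can be placed in each step was not measured.

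**Figure D1:**
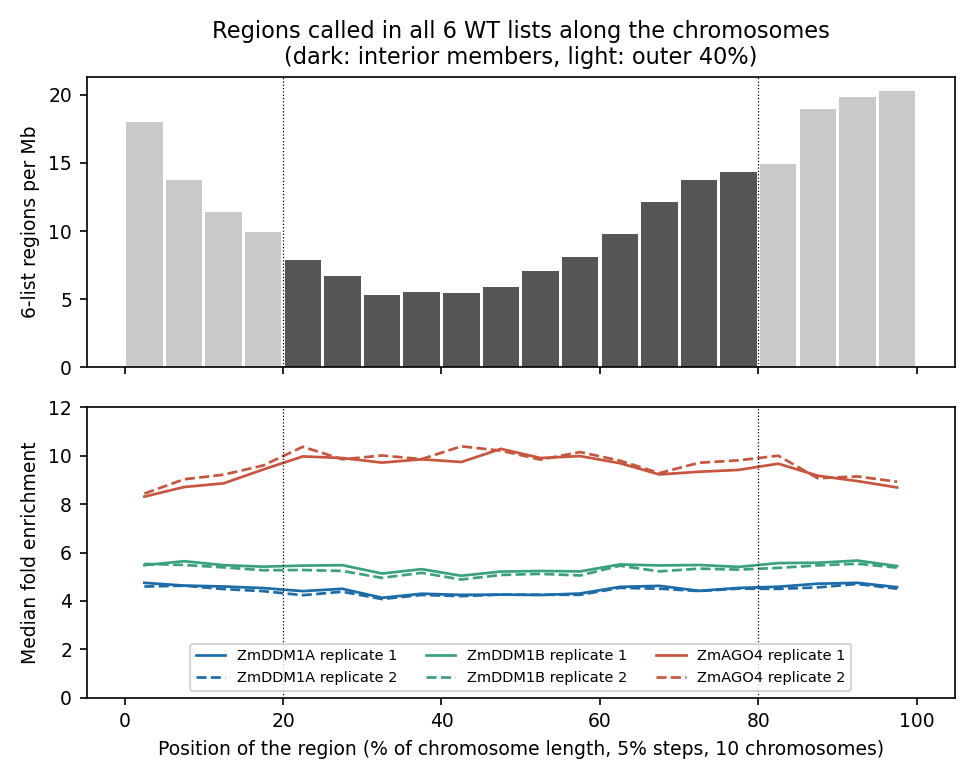
The upper panel shows the number of regions called in all 6 wild-type lists per Mb in 5% steps of chromosome length over 10 chromosomes, with interior members dark and outer regions light, and the lower panel the median fold enrichment of these regions in each library. Density falls to 5.30 per Mb between 30% and 35%, while ZmAGO4 medians in the interior stay between 9.22 and 10.4 and those of ZmDDM1A between 4.08 and 4.62.

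Distances between neighbouring members varied widely. The median distance from 1 member to the next on its chromosome was 57.2 kb, with quartiles of 10.2 and 146 kb, where the outer regions had a median of 27.1 kb. The next member lay within 10 kb for 2654 of 10729 gaps, or 24.7%, and within 1 kb for 827, or 7.71%. In the outer regions, which are denser, these shares were 34.6% and 9.19%. Of 1253 full interior windows of 1 Mb, 19 held no member, and the median window held 7. The fullest held 31 and was the window from 184000001 to 185000000 of chromosome 3, and another on the same chromosome, from 182000001 to 183000000, held 30. The longest stretch without a member was 2.51 Mb on chromosome 1, between 131998406 and 134504976, at 43.0% to 43.8% of its length. It was not empty of peaks, since 28 regions of fewer lists lay inside it.

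A member was typically covered for the most part by a broad ZmAGO4 peak, with narrower DDM1 peaks inside it or reaching past an edge. The median width of the members was 1653 bp, with quartiles of 1140 and 2496 bp and a range from 294 to 13749 bp, and together they covered 21.1 Mb. The strongest ZmAGO4 peak of a member had a median width of 1393 bp in replicate 1 and 1357 bp in replicate 2. Those of ZmDDM1A measured 457 and 482 bp, and those of ZmDDM1B 490 and 502 bp. ZmAGO4 peaks covered a median of 92.7% and 90.9% of the member, ZmDDM1A peaks 33.7% and 35.3%, and ZmDDM1B peaks 36.6% and 37.2%. In 4668 members, or 43.5%, a ZmAGO4 peak set both outer edges, and in 649, or 6.04%, it set neither. In the outer regions ZmAGO4 set neither edge in 9.37%.

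Most members had a stretch that all 6 lists shared. The rule asks only for a chain of overlapping peaks, yet 10161 members, or 94.6%, held at least 1 base inside a peak of every list. This common stretch had a median length of 323 bp, with quartiles of 232 and 475 bp, and reached 4819 bp at most. The other 578 members were chains in which no base was called by all. Exactly 1 peak of each list was present in 7001 members, or 65.2%, and in the outer regions in 65.0%. A second ZmDDM1A peak occurred in 18.2% and 17.8% of members by replicate, a second ZmDDM1B peak in 19.8% and 18.9%, and a second ZmAGO4 peak in 6.85% and 7.29%.

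The fold enrichment of a peak, which is the ratio of its summit over the local background as the authors deposited it, was highest for ZmAGO4. Taking the strongest peak of each library in a member, the median fold was 4.42 and 4.36 in the ZmDDM1A replicates, 5.38 and 5.21 in the ZmDDM1B replicates, and 9.65 and 9.90 in the ZmAGO4 replicates. The antibodies and the depth of the libraries may differ, so these levels do not rank the proteins. The ranges were wide, from 1.78 to 30.1 in ZmDDM1A replicate 1, from 1.73 to 21.2 in ZmDDM1B replicate 1 and from 1.33 to 28.6 in ZmAGO4 replicate 1. Behind the medians stood 51 and 52 overlapping fragments at the ZmDDM1A summits, 60 and 52 at the ZmDDM1B summits and 220 and 205 at the ZmAGO4 summits, as recovered from the deposited fold and p-value. The exact Poisson 95% interval of a count of 51 runs from 38.0 to 67.1 and that of 220 from 192 to 251, so a single DDM1 fold is less certain than a single ZmAGO4 fold. These intervals cover counting error only.

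Replicates were closest to each other for ZmAGO4 and least close for ZmDDM1B. Across the 10739 members the SD of the log2 ratio of replicate 1 to replicate 2 was 0.43 for ZmDDM1A, 0.52 for ZmDDM1B and 0.35 for ZmAGO4. The replicate folds lay within 1.5 times of each other in 83.0%, 73.9% and 90.7% of members. The rank correlation of the folds across members was 0.59 between the ZmDDM1A replicates, 0.48 between the ZmDDM1B replicates and 0.90 between the ZmAGO4 replicates. Between ZmDDM1A and ZmDDM1B libraries it was 0.40 to 0.43, close to the value between replicates of ZmDDM1B. Between a DDM1 library and a ZmAGO4 library it lay between −0.09 and 0.01. The order of the members by DDM1 fold was thus nearly unrelated to their order by ZmAGO4 fold. These correlations are descriptions over members of the same libraries, which neighbour each other and were cut off from below by the peak threshold, and they carry no p.

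Compared with the outer regions of the same 6 lists, the members had lower median DDM1 folds and higher median ZmAGO4 folds, by small amounts. For ZmDDM1A the interior median was 4.42 against 4.65 in replicate 1 and 4.36 against 4.56 in replicate 2, a mean log2 difference of −0.07 ± 0.0071 (SD, n = 2). For ZmDDM1B it was 5.38 against 5.54 and 5.21 against 5.45, a mean of −0.06 ± 0.016 (SD, n = 2). For ZmAGO4 it was 9.65 against 8.97 and 9.90 against 9.18, a mean of 0.11 ± 0.0037 (SD, n = 2). Each difference had the same sign in both libraries and was larger than the spread between them. The exact sign-flip test gave p = 0.5 for each antibody (two-sided, n = 2), the smallest value that 2 libraries allow, so it could not decide. Both sets were chosen by the peak calls of these same lists, so the differences are a description.

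Most chromosomes showed the same signs. The interior was lower for ZmDDM1A on 10 of 10 chromosomes in replicate 1 and on 9 in replicate 2, and for ZmDDM1B on 9 in each replicate. For ZmAGO4 it was higher on 8 in replicate 1 and on 10 in replicate 2. Between antibodies the difference was −0.18 for ZmDDM1A minus ZmAGO4 and −0.16 for ZmDDM1B minus ZmAGO4, both with an exact permutation p = 0.333 and a Benjamini-Hochberg p = 0.5 over the 3 pairs (two-sided, 2 against 2 libraries). No comparison of 2 against 2 can give a smaller p than 0.333. For ZmDDM1A minus ZmDDM1B the difference was −0.01 (exact permutation p = 0.667, adjusted 0.667). The differences did not hold in every 5% step of the interior. In replicate 1 the ZmAGO4 median was 9.22 to 9.41 from 65% to 80%, below 9.67 in the outer step from 80% to 85%. That of ZmDDM1A was 4.62 from 65% to 70%, above 4.59 in the same outer step. From 20% to 60% every step had a ZmAGO4 median of at least 9.71 and a ZmDDM1A median of at most 4.50.

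The sizes depended on which regions entered. Where only peaks with a fold of at least 4 were used, the log2 differences shrank to −0.02 for ZmDDM1A, −0.0064 for ZmDDM1B and 0.03 for ZmAGO4. With −log10 q in place of the fold they were −0.11, −0.12 and 0.23. Among regions of intermediate width, between the quartiles of all regions of the 6 lists, the ZmAGO4 difference was 0.04, the ZmDDM1A difference −0.05 and the ZmDDM1B difference −0.06. The width limits that split the members into 4 equal groups, applied to the outer regions, put 4200 of the outer regions, or 31.4%, in the narrowest class, which held 2685 of the members. In that class the ZmAGO4 difference was 0.09 in both replicates, and in the widest it was 0.0045 and −0.0041, so its sign turned in replicate 2. The DDM1 differences were negative in all 4 width classes and in all 4 DDM1 libraries, between −0.08 and −0.04. These classes were added after the data were seen. The background at the summits, that is, the coverage expected from the control, was higher inside for ZmDDM1A, with medians of 10.9 against 10.4 in replicate 1 and 11.3 against 11.1 in replicate 2. These are log2 differences of 0.07 and 0.02, beside fold differences of −0.07 and −0.06, and the pileups were 51 against 52 and 52 against 53. For ZmDDM1B and ZmAGO4 the background medians inside and outside differed by less than 0.01 on the log2 scale in each library. Recovered backgrounds can repeat a value, such as 6.94 at several named regions in ZmDDM1B replicate 1. Medians can therefore tie, and a tie does not show that the backgrounds were alike. The part of the background in the fold differences was not tested for any antibody.

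**Figure D2:**
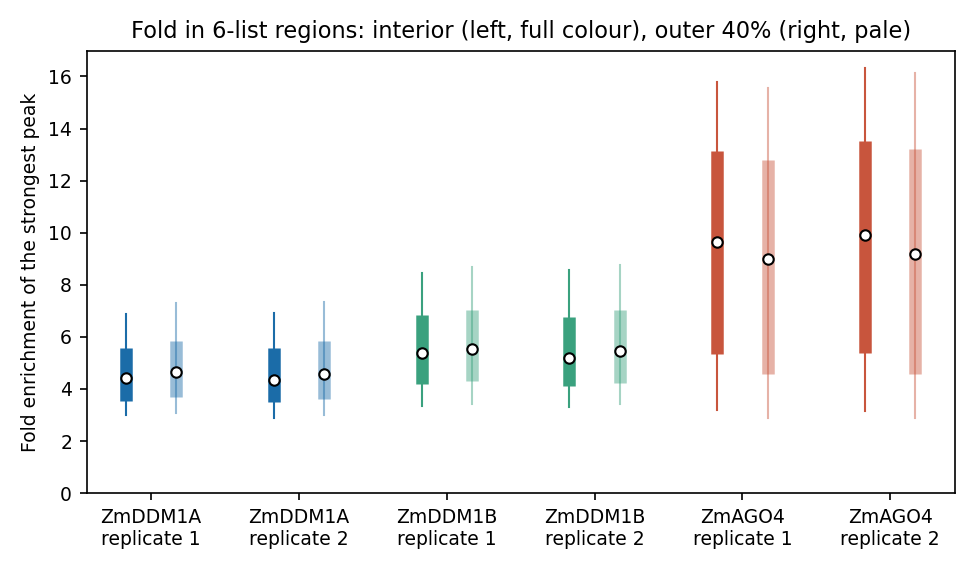
Fold enrichment of the strongest peak in each of the 6 wild-type libraries, for interior members in full colour and outer regions of all 6 lists in pale colour; circles are medians, thick bars span the 25th to 75th percentile and thin lines the 10th to 90th percentile of regions. The distributions overlap widely, and the interior median is lower in the 4 DDM1 libraries and higher in both ZmAGO4 libraries.

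Within members the DDM1 summits lay almost on top of each other and apart from the ZmAGO4 summit. From the strongest ZmDDM1A summit to the nearest ZmDDM1B summit of the same replicate number the median distance was 54 bp in replicate 1 and 55 bp in replicate 2. It was within 100 bp in 72.3% and 71.9% of members. That is not far above the distance between replicates of a single antibody, whose medians were 39 bp for ZmDDM1A, 33 bp for ZmDDM1B and 25 bp for ZmAGO4. From the ZmDDM1A summit to the nearest ZmAGO4 summit the medians were 275 and 281 bp, and from the ZmDDM1B summit 305 and 305 bp. Here 24.4% and 23.6% of members had ZmDDM1A and ZmAGO4 within 100 bp, and 29.5% and 29.8% had them over 500 bp apart. The outer regions had a similar layout, with medians of 50 and 51 bp between the DDM1 summits. Their medians to ZmAGO4 were 255 and 258 bp from ZmDDM1A and 283 and 288 bp from ZmDDM1B.

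In 6137 members of replicate 1 and 6216 of replicate 2 both DDM1 summits lay over 200 bp from the ZmAGO4 summit, which is 57.1% and 57.9%, against 54.0% and 54.7% of the outer regions. All 3 summits lay within 100 bp of each other in 1554 members, or 14.5%, in replicate 1 and in 1499, or 14.0%, in replicate 2. In the outer regions this tight stacking was seen in 18.8% and 17.9%. The DDM1 summits mostly stayed within the ZmAGO4 peak all the same. The ZmDDM1A summit lay inside the strongest ZmAGO4 peak in 92.6% and 91.3% of members and the ZmDDM1B summit in 90.8% and 89.0%. Of these ZmDDM1A summits 47.1% and 48.0% fell in the 25% of the ZmAGO4 peak nearest to either edge, and of the ZmDDM1B summits 49.6% and 50.2%. Summits placed evenly along the peak would give 50%, so by this cut the DDM1 summits were close to even placement. They were not evenly spread at a finer scale. The 10% nearest to either edge held 12.1% and 13.1% of the ZmDDM1A summits and 14.9% and 15.5% of the ZmDDM1B summits. These shares are lower than even placement would give. The ZmAGO4 summit itself lay in the 25% nearest to either edge in 17.3% and 17.5% of members.

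**Figure D3:**
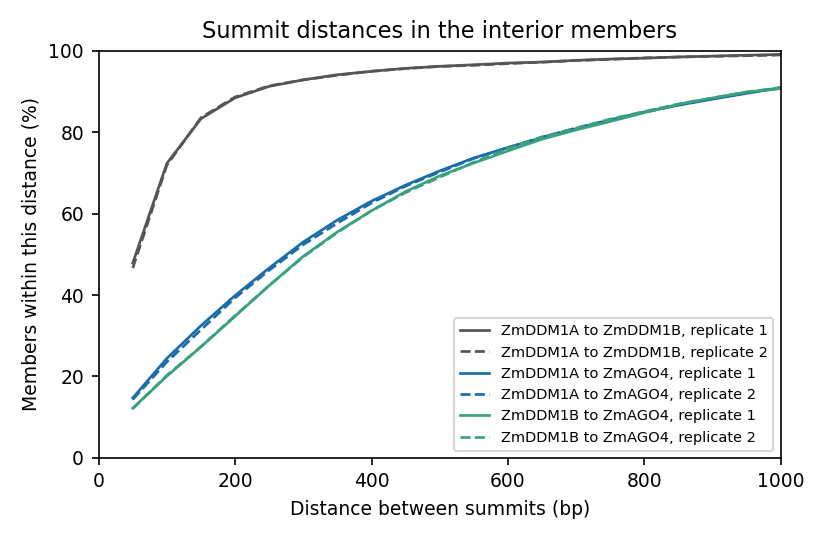
Cumulative share of the 10739 members whose summits lie within a given distance, for each pair of proteins and each replicate number. The ZmDDM1A to ZmDDM1B curves pass 72.3% and 71.9% at 100 bp, where the curves to ZmAGO4 stand between 20.1% and 24.4%.

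The ZmAGO4 fold and its distance to the DDM1 summits varied with the width of the member. Members were placed in 4 equal groups by width, a split chosen after the data were seen. In the narrowest group, from 294 to 1139 bp, the median ZmAGO4 fold was 4.43 and 4.40, no higher than the DDM1 folds of 4.75 and 4.65 for ZmDDM1A and 5.37 and 5.19 for ZmDDM1B. In the widest group, from 2497 to 13749 bp, the ZmAGO4 fold was 12.9 and 13.3, while ZmDDM1A stood at 4.49 and 4.42 and ZmDDM1B at 5.64 and 5.54. The rank correlation of fold with width was 0.58 and 0.59 for ZmAGO4 and lay between −0.06 and 0.06 in the DDM1 libraries. Since ZmAGO4 peaks cover most of a member, a split by width largely sorts members by the width of their ZmAGO4 peak. The part of this construction in the contrast with DDM1 was not tested.

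Summit distances split in the same way. The distance from ZmDDM1A to ZmDDM1B moved only from 42 and 43 bp in the narrowest group to 61 and 61 bp in the widest. The distance from ZmDDM1A to ZmAGO4 went from 68 and 74 bp to 556 and 551 bp, and that from ZmDDM1B to ZmAGO4 from 91 and 96 bp to 556 and 553 bp. The ZmAGO4 peaks widened from a median of 617 and 594 bp to 2983 and 2964 bp and the ZmDDM1A peaks from 403 and 419 bp to 523 and 555 bp. Peak width thus moved with summit distance, and its part in the distance was not tested.

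**Figure D4:**
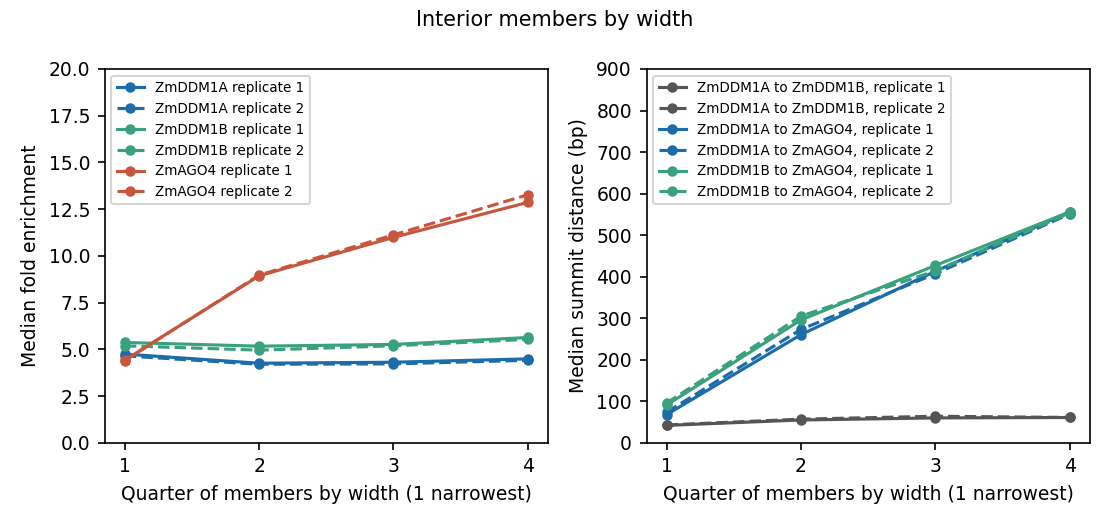
Median fold enrichment in each library (left) and median summit distance of each protein pair (right) in 4 equal groups of members by width, with replicate 1 as solid and replicate 2 as dashed lines. ZmAGO4 fold goes from 4.43 and 4.40 to 12.9 and 13.3 and the ZmDDM1A to ZmAGO4 distance from 68 and 74 bp to 556 and 551 bp, while both DDM1 folds and the distance between them stay nearly level.

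The 5 members with the highest smallest fold over the 6 libraries had a fold of at least 8 in every library. The first, from 192210553 to 192214511 of chromosome 2, had folds of 9.69 and 9.88 for ZmDDM1A, 12.1 and 11.4 for ZmDDM1B, and 13.5 and 12.5 for ZmAGO4. Its DDM1 summits lay 11 and 21 bp apart by replicate, and 2730 and 2785 bp separated ZmDDM1A from the strongest ZmAGO4 summit. At this member the DDM1 summits and the ZmAGO4 summit thus lay near opposite ends. The second, from 189672348 to 189673525 of the same chromosome, had 10.3 and 12.8 for ZmDDM1A, 9.78 and 9.10 for ZmDDM1B, and 23.2 and 20.8 for ZmAGO4.

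The third, from 128213041 to 128214892 of chromosome 8, had folds of 9.77 and 9.61 for ZmDDM1A, 10.6 and 14.4 for ZmDDM1B, and 8.92 and 8.98 for ZmAGO4, with no antibody far above the others. It was also called in both zmddm1b libraries, with folds of 4.76 and 4.69. The fourth, from 126580631 to 126581969 of chromosome 9, showed how far replicates can part, with ZmAGO4 folds of 14.6 and 23.8 that came from 199 and 188 fragments over backgrounds of 12.7 and 6.93. Its ZmDDM1A folds were 11.1 and 8.85 and its ZmDDM1B folds 9.32 and 12.8. The fifth, from 196249226 to 196255459 of chromosome 4, was 6234 bp wide and held 3 peaks in each DDM1 library. Its strongest ZmDDM1A summits in replicates 1 and 2 were at 196254986 and 196249546, near opposite ends, with folds of 9.69 and 8.79. All 5 lay beyond 70% of the chromosome length.

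A more usual member, the one with the median smallest fold, lay from 51854098 to 51855936 of chromosome 3. Its folds were 4.52 and 3.37 for ZmDDM1A, 4.67 and 6.70 for ZmDDM1B, and 16.3 and 19.0 for ZmAGO4. The DDM1 summits were 28 and 49 bp apart, and ZmDDM1A and ZmAGO4 1017 and 1065 bp apart. Over all members the smallest fold had a median of 3.37 and quartiles of 2.79 and 4.19, and 3142 members, or 29.3%, had all 6 folds at 4 or above. At the weak end, the member from 135038118 to 135038688 of chromosome 8 had folds between 2.28 and 2.60 in the 6 libraries. That from 141147014 to 141147910 of the same chromosome had folds between 1.77 and 2.86 over high backgrounds, for example 43.5 in ZmDDM1A replicate 2 and 58.9 in ZmAGO4 replicate 2, and no base common to all lists.

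In the 3 widest members the ZmAGO4 folds were above the median of all members and the ZmDDM1A folds, except 1 of 4.65, below it, while the ZmDDM1B folds lay on both sides. The widest of all, from 178082692 to 178096440 of chromosome 3, spanned 13749 bp and had folds of 15.3 and 14.3 for ZmAGO4 but 2.72 and 3.42 for ZmDDM1A. Its ZmDDM1B folds parted between replicates, at 7.45 and 3.51. The stretch common to the 6 lists measured 263 bp. The next, from 130230453 to 130242242 of chromosome 4, had 10.99 and 14.3 for ZmAGO4. Its ZmDDM1A folds were 3.98 and 4.65, and its ZmDDM1B folds of 8.33 and 7.76 were above the median of all members. The third, from 171202479 to 171213304 of chromosome 3, had 15.3 and 19.6 for ZmAGO4. Its ZmDDM1A folds were 3.09 and 2.80 and its ZmDDM1B folds 5.29 and 3.02, and it had no common base.

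The position limits cut a continuous series of regions. The members closest to the 20% limit were on chromosome 1, from 61414029 to 61416776, with folds of 3.72 to 10.8 over the 6 libraries, and from 61530463 to 61532141, with 2.37 to 14.2. Just outside lay regions on chromosome 9 from 31929950 to 31931125, with 3.14 to 8.44, and on chromosome 2 from 48822803 to 48824952, with 4.17 to 9.07. At the 80% limit the closest members were on chromosome 5 from 179112985 to 179113548, with 3.83 to 7.64, and on chromosome 2 from 195514839 to 195519049, with 3.13 to 16.0. Outside it were regions on chromosome 10 from 120792853 to 120795685, with 2.69 to 13.6, and on chromosome 6 from 139238381 to 139238780, with 2.78 to 7.58.

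The mutant lists, which the choice of members did not use, were short and called few of them. They held 817 and 883 peaks in the zmddm1a replicates and 1870 and 766 in the zmddm1b replicates. The WT DDM1 lists held 45011 to 56570 peaks. With mutant lists this short, only a small part of the 10739 members could be met. Of the mutant peaks 32.6% and 21.1% in zmddm1a and 17.7% and 5.35% in zmddm1b lay in members. Of the WT peaks 28.5% and 28.9% for ZmDDM1A and 23.6% and 24.8% for ZmDDM1B did so, in lists that served to choose the members. In zmddm1a replicate 1 a peak met 263 of the 10739 members, or 2.45% (exact Clopper-Pearson 95% interval 2.16 to 2.76), and in replicate 2 it met 184, or 1.71% (1.48 to 1.98). Over all merged regions the shares were 0.658% and 0.688%. In zmddm1b replicate 1 it met 319, or 2.97% (2.66 to 3.31), and in replicate 2 only 41, or 0.382% (0.274 to 0.518), against 1.15% and 0.307% over all merged regions. In zmddm1b replicate 2 the background lay inside the interval of the members' share, and in the other 3 libraries it lay below the interval. The intervals cover counting error only and take neighbouring members as independent. The background contains the members themselves and was not matched to them in width, so the contrast is a description. Interior regions of fewer lists were called in 0.169%, 0.414%, 0.625% and 0.291%. At least 1 mutant library called 648 members, or 6.03% (background 2.26%), and the other 10091, or 94.0%, were called in none of the 4. The depth of the mutant libraries was not measured here, so a missing peak does not show that the signal was absent.

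A peak of either zmddm1a library met 353 members, or 3.29% (background 1.06%), and a peak of both met 94, or 0.875% (background 0.287%). For zmddm1b these were 330, or 3.07% (background 1.29%), and 30, or 0.279% (background 0.164%). The zmddm1b share rested on replicate 1, since without it 0.382% remained, against 2.97% without replicate 2. Without zmddm1a replicate 1 the zmddm1a share was 1.71%, and without replicate 2 it was 2.45%. Members called in both mutants numbered 35, which is 9.92% of the zmddm1a and 10.6% of the zmddm1b members. Over all merged regions the matching shares were 9.03% and 7.4004%. The 35 were 0.326% of all members, where the background was 0.0958%.

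The share of regions called in the mutants was lower among interior members than among the outer regions in each library. The interior and outer shares were 2.45% against 2.73% and 1.71% against 2.18% in the zmddm1a replicates, a mean difference of −0.375 ± 0.134 percentage points (SD, n = 2). They were 2.97% against 3.96% and 0.382% against 0.493% in the zmddm1b replicates, a mean difference of −0.552 ± 0.622 points (SD, n = 2), which is smaller than its spread. All 4 libraries had the same sign. The exact sign-flip test gave p = 0.5 for each mutant (two-sided, n = 2), the smallest possible value. The intervals of interior and outer shares were apart in zmddm1b replicate 1 and overlapped in the other 3 libraries.

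**Figure D5:**
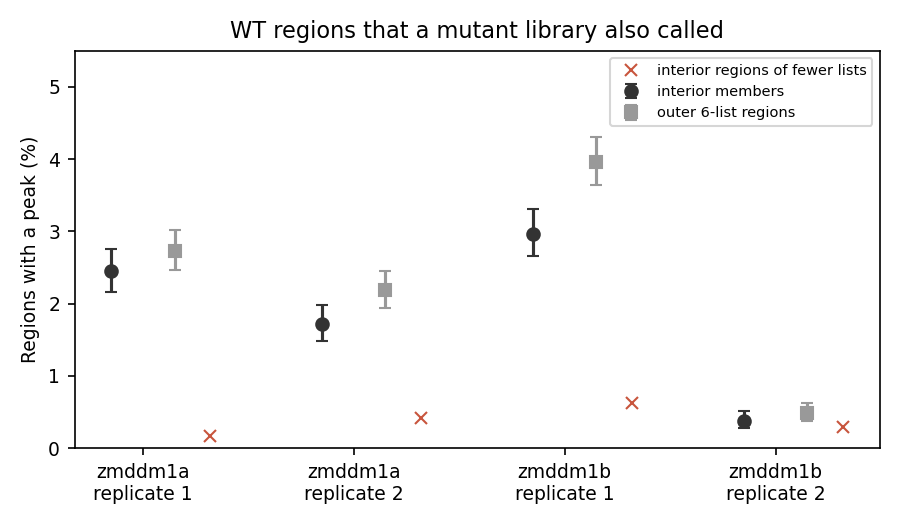
Share of regions that each mutant library called, for interior members, outer regions of all 6 wild-type lists and interior regions of fewer lists; bars, drawn for members and outer regions, are exact 95% binomial intervals and cover counting error only. Interior members lie below the outer regions in all 4 libraries and above the interior regions of fewer lists, by the least in zmddm1b replicate 2, at 0.382% against 0.291%.

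Members that a mutant still called were those with strong WT peaks of the same antibody. The 353 members with a zmddm1a peak had median ZmDDM1A folds of 6.57 and 6.63 in WT, against 4.39 and 4.31 for the rest, and ZmDDM1B folds of 6.36 and 6.31 against 5.34 and 5.18. Their ZmAGO4 folds of 9.65 and 9.83 were like those of the rest, at 9.65 and 9.91. The 330 members with a zmddm1b peak had ZmDDM1B folds of 7.345 and 7.397 against 5.31 and 5.15, and ZmDDM1A folds of 5.78 and 5.99 against 4.39 and 4.33. Both sets were wider than the others, with medians of 1978 and 2083 bp against 1644 and 1643 bp. The share met by zmddm1a went from 2.38% in the narrowest group to 4.66% in the widest, and that met by zmddm1b from 2.31% to 4.70%. The part of width in these differences was not tested.

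At most of these members the deposited fold was lower in the mutant than in WT. In zmddm1a replicate 1 the median was 4.33 where WT had 6.88 and 6.86 at the same 263 members, and 33 and 32 of them exceeded WT replicates 1 and 2. In zmddm1b replicate 1 it was 3.94 where WT had 7.351 and 7.3995 at the same 319 members. Folds of separate lists have separate controls and depths, so these are side-by-side values.

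A few interior members kept high folds in zmddm1a. The member from 125929470 to 125933154 of chromosome 7 had 16.97 and 25.4 in zmddm1a and 28.6 and 36.8 for ZmDDM1A in WT. That from 127762683 to 127768167 of chromosome 2 had 20.2 and 14.7 in zmddm1a, where WT had 19.5 and 27.8. That from 55661203 to 55662857 of chromosome 2 had 14.2 in both replicates, where WT had 19.9 and 23.5. At all 3 the WT ZmDDM1B folds were much lower, at 10.96 and 7.83, 5.00 and 6.19, and 3.22 and 3.82. The strongest DDM1 summits lay 881 and 906 bp apart at the first, 2053 and 2095 bp at the second and 924 and 326 bp at the third. The second held 1 ZmDDM1B peak in each replicate and so differed from the usual member, in which the DDM1 summits nearly coincided. That usual distance was taken to the nearest ZmDDM1B summit. It is not comparable where a member held more than 1 ZmDDM1B peak, as the first did in both replicates and the third in replicate 1. No zmddm1b library called these 3 members.

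The 3 members with the highest folds in both zmddm1b libraries had lower folds there. The member from 94240760 to 94241609 of chromosome 6 had 7.74 and 7.07 in zmddm1b, where WT had 8.67 and 15.4 for ZmDDM1B, and it also had a fold of 5.64 in zmddm1a replicate 1. That from 97452970 to 97458184 of chromosome 1 had 10.2 and 6.77 in zmddm1b, where WT had 16.2 and 11.1. That from 126852887 to 126857220 of chromosome 8 had 7.38 and 6.56, where WT had 8.74 and 10.6. On chromosome 6 the member was 850 bp wide and its ZmAGO4 folds were low, at 3.31 and 2.62.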

How the data were processed

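Peak lists of 10 ChIP-seq libraries were used. Per the submitters' processing notes the tools of the series included Trim Galore, Bowtie2, Picard and MACS2 2.1.2 on B73 RefGen_v4; the sources used here do not give their roles or settings. Each deposited list holds 1 library, with a fold enrichment ratio, −log10 p-values and q-values and a score per peak, as the authors deposited them. The score was not used. The fold describes peaks within a list.

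Peaks were merged at 1 bp of overlap. The largest end over the 10 lists was taken as the chromosome length. The summit pileup was recovered as the whole number that satisfies both the deposited fold and the Poisson p-value within 0.001, which held for 99.997% to 100% of WT summits. The recovery, the merge and the difference of medians were tested on simulated data, and 100% of 20000 simulated pileups were right. The strongest peak of each library stood for a region. Interior and outer medians were compared within libraries by exact sign-flip tests and between antibodies by exact permutation (scipy 1.17.1, pandas 2.3.3, numpy 2.4.6). Named members are the 5 with the highest smallest WT fold, the 3 per mutant called in both libraries with the highest smaller mutant fold, the 3 widest, the 2 on each side of each position limit, the 2 with the lowest largest fold and the median one. Alternatives were stricter peak thresholds, other merging and position limits, and leaving out each library. Members, lists and rules were chosen with earlier results of these data known. Input, IgG, H3K9me2 and mRNA libraries were not analysed here, nor were sequences or genes, since no genome of this build was used.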

Additional observations from a re-analysis of the deposited data

Results flagged for a closer look

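The interior minus outer difference in median log2 fold had opposite signs for ZmAGO4 and for the DDM1 proteins in every library. It was positive in both ZmAGO4 libraries (0.10 and 0.11) and negative in both ZmDDM1A libraries (−0.07 and −0.06) and both ZmDDM1B libraries (−0.04 and −0.07). The gap was −0.18 for ZmDDM1A minus ZmAGO4 and −0.16 for ZmDDM1B minus ZmAGO4 (exact permutation p = 0.333 for each, the smallest that 2 against 2 libraries allow). Both sets of regions were chosen by the calls of these same lists, so the gap is a description. Width moved with it, since the ZmAGO4 difference was 0.04 among regions of intermediate width, and the part of width in the gap was not tested.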

How the results depend on the processing

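Over 17 results 211 alternatives were run. Of these 150 were counted as kept in direction or close in size, 61 as moved and none of the 211 as reversed. The 150 include large moves in the number of members, from 10739 to 8399 in the middle 50% and 13357 in the middle 70%. At −log10 q of at least 5 the number was 9177. Some of the 150 kept the direction but shrank. With a fold of at least 4 the interior minus outer log2 fold of ZmDDM1B went from −0.06 to −0.0064. That of ZmAGO4 went from 0.11 to 0.03. Without zmddm1b replicate 1 the interior minus outer share with a zmddm1b peak went from −1.02 to −0.112 points. Tests with 2 libraries could not pass the threshold, so their calls could not change. For each move below, the cause was not tested. With a fold of at least 4 there were 3139 members (42.4% of the regions of all 6 lists), with a median width of 1916 bp, a neighbour distance of 200.3 kb, zmddm1a and zmddm1b shares of 6.24% and 6.66%, and summit distances of 43.5, 385.5 and 394.5 bp (ZmDDM1A to ZmDDM1B, ZmDDM1A to ZmAGO4, ZmDDM1B to ZmAGO4). At −log10 q of at least 5 the width was 1685 bp, the neighbour distance 67.0 kb and the summit distances 51, 290 and 313 bp. Merging peaks up to 200 bp apart gave 1757 bp, and 283 and 311 bp from ZmDDM1A and ZmDDM1B to ZmAGO4. Members with a base common to all lists had a width of 1639 bp, a neighbour distance of 60.5 kb and summit distances of 52.5, 269 and 294 bp. The middle 50% held 34.8% of the regions (width 1644 bp, neighbours 59.98 kb, ZmDDM1B to ZmAGO4 306 bp) and the middle 70% held 55.4% (neighbours 53.8 kb, 303 bp). Without members holding a mutant peak the values were 1636 bp, 61.9 kb and 301.5 bp. Peaks of both mutant libraries met 0.875% (zmddm1a) and 0.279% (zmddm1b).

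Leaving out 1 library gave 10954 to 11559 members, 44.3% to 44.9% of the regions, widths of 1553 to 1638 bp, neighbour distances of 53.8 to 56.2 kb, zmddm1a shares of 1.71% to 3.26%, zmddm1b shares of 0.382% to 3.03%, and summit distances of 54 to 57, 264.5 to 277 and 294 to 304 bp. The interior minus outer log2 folds then ran from −0.08 to −0.07 for ZmDDM1A, −0.07 to −0.05 for ZmDDM1B and 0.11 to 0.13 for ZmAGO4. With the replicate block the gaps between antibodies were −0.01, −0.18 and −0.16 (exact sign-flip p = 1, 0.5 and 0.5), and the block changed no call. Same-numbered libraries of different antibodies did not deviate together across members (correlations of −0.01 to 0.01). Such correlations over members cannot show whether same-numbered libraries shared plants or a batch, so a pairing is not excluded. Depth limits single DDM1 folds more than ZmAGO4 folds, and the planned gene positions were not run.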
